A study of Mus musculus with 2 samples.

Results

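The genes described here encode chromatin remodelers, histone deacetylases and bromodomain proteins. They were chosen by symbol alone: every autosomal protein-coding gene of GENCODE mouse release M21 whose symbol starts with Smarc, or with Chd, Arid, Baz, Hdac or Brd followed by a digit. This gave 53 of 20807 genes, with 12 Smarc, 10 Chd, 10 Arid, 4 Baz, 9 Hdac and 8 Brd genes. Brd3os, which lies beside Brd3 on the opposite strand, entered through its symbol and is not known as a bromodomain gene. X-linked members of the families were outside the rule.

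The m6A sites came from GLORI, a chemical assay that deaminates unmethylated adenosines, so that only methylated ones are still sequenced as A. A single library was made from the cerebellum and a single one from the cerebrum of a female P0 (newborn) F1r hybrid, born to a C57 mother and a PWK father, which the study describes as a single mouse, both from poly(A)+ RNA of bulk tissue and with no treatment but the assay. The deposited lists give a chromosome, a position and a strand for each site that passed the filters of the authors, without methylation rate or read count. The depth behind a site is therefore unknown, and a position that is not listed may be unmethylated, not expressed or too thinly covered.

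Chromatin remodelers use ATP to slide, evict or exchange nucleosomes and work in large complexes such as BAF, ISWI and NuRD, histone deacetylases remove acetyl groups from histone tails, and bromodomains bind acetylated lysine. Many of these genes are known for neurodevelopmental disorders when a single copy is lost, ARID1B, CHD7 and CHD8 among them. In mRNA, m6A is written by the METTL3-METTL14 complex in the DRACH motif (D stands for any base but C, R for a purine and H for any base but G), and it is known to be frequent in long internal exons, around stop codons and in 3′ UTRs.

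The sequences that follow carry the comparison of the paralogs Arid1a and Arid1b, the DNA-binding subunits of BAF that exclude each other. Each window has 21 nt of GRCm38, written 5′ to 3′ on the strand of the transcript, with the DRACH 5-mer in capitals and the listed adenosine at its centre. Each pair of lines holds adenosines at the same codon position of an aligned codon, and every one of these sites was listed in both libraries.
Arid1a, coding, 472 nt before the stop codon's last base, chr4:133680793-133680813, minus strand: agcatccaGGACAacaatgtg
Arid1b, coding, 472 nt before the stop codon's last base, chr17:5342605-5342625, plus strand: agtatccaGGACAacaacgtg
Arid1a, coding, 460 nt before the stop codon's last base, chr4:133680781-133680801, minus strand: aacaatgtGGACCtgatcctg
Arid1b, coding, 460 nt before the stop codon's last base, chr17:5342617-5342637, plus strand: aacaacgtGGACCtgatcttg
Arid1a, coding, 186 nt before the stop codon's last base, chr4:133680507-133680527, minus strand: caccctttGAACCaactagtg
Arid1b, coding, 186 nt before the stop codon's last base, chr17:5342891-5342911, plus strand: cacctctgGAACCccctagtg
Arid1a, coding, 172 nt before the stop codon's last base, chr4:133680493-133680513, minus strand: actagtgtGGACAtgatgcgg
Arid1b, coding, 172 nt before the stop codon's last base, chr17:5342905-5342925, plus strand: cctagtgtAGACAtgatgtgc
Arid1a, coding, 55 nt before the stop codon's last base, chr4:133680376-133680396, minus strand: ccactgatGAACTcattggtt
Arid1b, coding, 55 nt before the stop codon's last base, chr17:5343022-5343042, plus strand: gctgtcctGAACTctctggtt

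The next windows show, for the Chd, Arid, Baz and Hdac families, the shared DRACH sites nearest the stop codon in the member with the most shared DRACH sites. Capitals again mark the 5-mer around the listed adenosine, and all 8 sites were in both lists. Most lie in the 3′ UTR.
Chd9, 3′ UTR, 26 nt past the stop codon's last base, chr8:91051988-91052008, plus strand: ctcctcctGAACTggttttgc
Chd9, 3′ UTR, 54 nt past the stop codon's last base, chr8:91052016-91052036, plus strand: ttaattacTAACTgtaaatat
Arid1a, 3′ UTR, 11 nt past the stop codon's last base, chr4:133680310-133680330, minus strand: cagccgtgGGACAcctcccct
Arid1a, 3′ UTR, 49 nt past the stop codon's last base, chr4:133680272-133680292, minus strand: tgtgtggaGAACTtagaaact
Baz2b, 3′ UTR, 102 nt past the stop codon's last base, chr2:59900537-59900557, minus strand: atgcatatTAACTttttcctt
Baz2b, coding, 156 nt before the stop codon's last base, chr2:59901467-59901487, minus strand: taaataatGGACAgtaagtaa
Hdac4, 3′ UTR, 54 nt past the stop codon's last base, chr1:91933283-91933303, minus strand: cagccaagAAACTtacccgta
Hdac4, 3′ UTR, 382 nt past the stop codon's last base, chr1:91932955-91932975, minus strand: tacagaacAAACTtgattaaa

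Of the 53 genes, 42 carried at least 1 listed site in the cerebellum library and 49 in the cerebrum library. Over all autosomal protein-coding genes the shares were 41.9% and 58.4%. A site in a DRACH motif was listed in 37 members in the cerebellum (35.7% of all genes) and in 47 in the cerebrum (46.0% of all genes). A DRACH site at the same position in both lists was found in 35 members (32.2% of all genes). Arid3c, Arid5a, Chd1l and Smarcd2 had no site in either list, 4 of 53 where 40.3% of all genes had none. These lists depend on expression, so a member without a site may not have been read deeply enough.

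The cerebellum list held 472 member sites and the cerebrum list 1070, of which 323 were shared. In the cerebellum 321 of the sites, or 68.0% (95% Wilson interval 63.7 to 72.1), had the DRACH motif, against 63.2% in the other coding genes. In the cerebrum 544 did, or 50.8% (47.8 to 53.8), against 47.5%. Both libraries thus placed the members a few percentage points above the other genes, and 85.4% of the shared member sites were in DRACH. All intervals cover counting error over sites only and treat neighbouring sites as independent. With 1 library per tissue, the differences between the lists had no replicate check and were not tested.

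The ratio of cerebrum to cerebellum DRACH sites was 1.69 over the members and 1.77 over the other coding genes. The name of the cerebrum list also holds the short form used for the cerebellum, so the tissue labels were checked: 69 cerebellum and 50 cerebrum sites fell in 10 hindbrain genes, and 10 and 253 in 10 forebrain genes. Of the 47 members with a DRACH site, 2 had more in the cerebellum than in the cerebrum, beside 7.24% of all genes with a DRACH site. They were Chd7, a remodeler known for CHARGE syndrome, with 7 in cerebellum and 6 in cerebrum, and Hdac2 with 2 and 1. A further 6 members had the same number in both lists, a case that was not counted over all genes. Of the 47 members, 10 had DRACH sites in the cerebrum list alone. Over all genes, 7422 of the 9877 with a DRACH site had one in the cerebellum list, so cerebrum-only genes were common outside the members too. In bulk tissue, fewer cells of a type and less RNA per cell cannot be told apart. Among the DRACH sites in the cerebellum, 276 of 321, or 86.0% (81.8 to 89.4), were also in the cerebrum list, against 81.5% for the other coding genes.

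Sites were unevenly spread over the members. Chd9, Arid1a, Arid2, Arid1b, Chd6 and Chd8 together held 158 of the 321 DRACH sites in the cerebellum, or 49.2%, and 239 of the 544 in the cerebrum, or 43.9%. In the union of the lists, 21 members had at least 10 DRACH sites and 9 had at least 20, where 14.7% and 6.05% of all genes reached these numbers. The members are long genes: the median coding sequence of those with a site was 3297 nt, against 1398 nt for the other genes with a site, so site numbers were also set against the DRACH adenosines that each transcript offers.

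**Figure D1:**
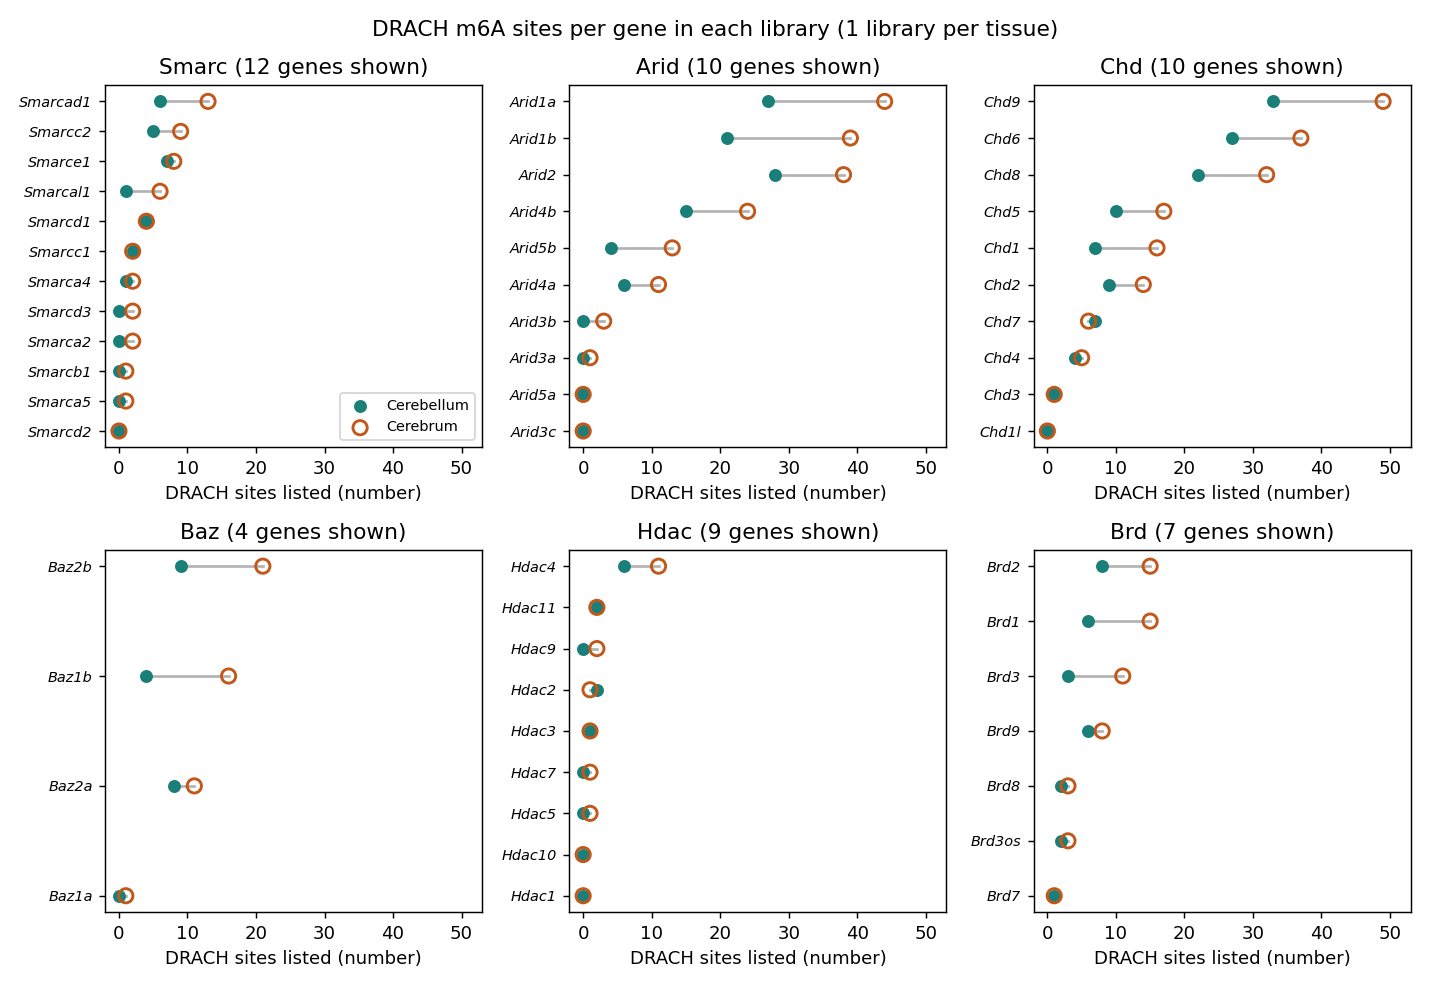
Number of DRACH m6A sites listed in each of 52 of the genes, by family, in the cerebellum library (filled green) and the cerebrum library (open orange), with a line joining the counts of each gene. Chd9 reached 33 and 49 sites and Arid1a 27 and 44, while every Hdac gene other than Hdac4 had at most 2 sites in either library.

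The longest coding isoforms of the 53 genes hold 5994 DRACH adenosines. Of these, 307 were listed in the cerebellum, or 5.12% (4.59 to 5.71), and 495 in the cerebrum, or 8.26% (7.59 to 8.98). Over all autosomal coding genes the listed shares were 3.09% and 5.28%. The gap narrowed among genes with a site, where the shares were 5.34% and 8.61% for the members and 4.23% and 7.22% for the others. Per gene, the median listed share of the members with a site was 3.12% in cerebellum and 6.54% in cerebrum, beside 1.49% and 4.17% for other genes with a site.

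The members also differed from other genes in where on the transcript the sites lay. In the cerebellum, 234 of 411 sites on coding transcripts, or 56.9% (52.1 to 61.6), were in the coding sequence, against 40.5% in the other genes. The cerebrum gave 485 of 784, or 61.9% (58.4 to 65.2), against 42.5%. The 3′ UTR held 39.4% and 34.3% of member sites, where the other genes had 56.7% and 54.3%. This order of regions was that of the available adenosines as well: 68.8% of the DRACH adenosines of the members with a site were coding, against 47.6% in other genes with a site. Within the coding sequence 174 of 3952 DRACH adenosines of these members were listed in the cerebellum and 302, or 7.64%, in the cerebrum, beside 3.55% and 6.28% for the others. In the 3′ UTR it was 7.62% and 10.9%, against 5.16% and 8.58%.

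Exon length separated the listed from the unlisted DRACH adenosines. Internal exons of 400 nt or less held 52.0% of the DRACH adenosines of the members, and 0.769% of these were listed in cerebellum and 1.70% in cerebrum. In internal exons over 400 nt the listed shares were 16.7% (14.0 to 19.7) and 25.3% (22.1 to 28.7). In last exons they were 8.33% and 13.2%. Among members with a site the shares were again 16.7% and 25.3% in long internal exons, and 8.86% and 14.0% in last exons. Other genes with a site had 11.9% and 19.3% in long internal exons and 5.59% and 9.49% in last exons, so both groups showed the same order of exon classes. The intervals of the members and the others did not overlap for either class in either library.

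**Figure D2:**
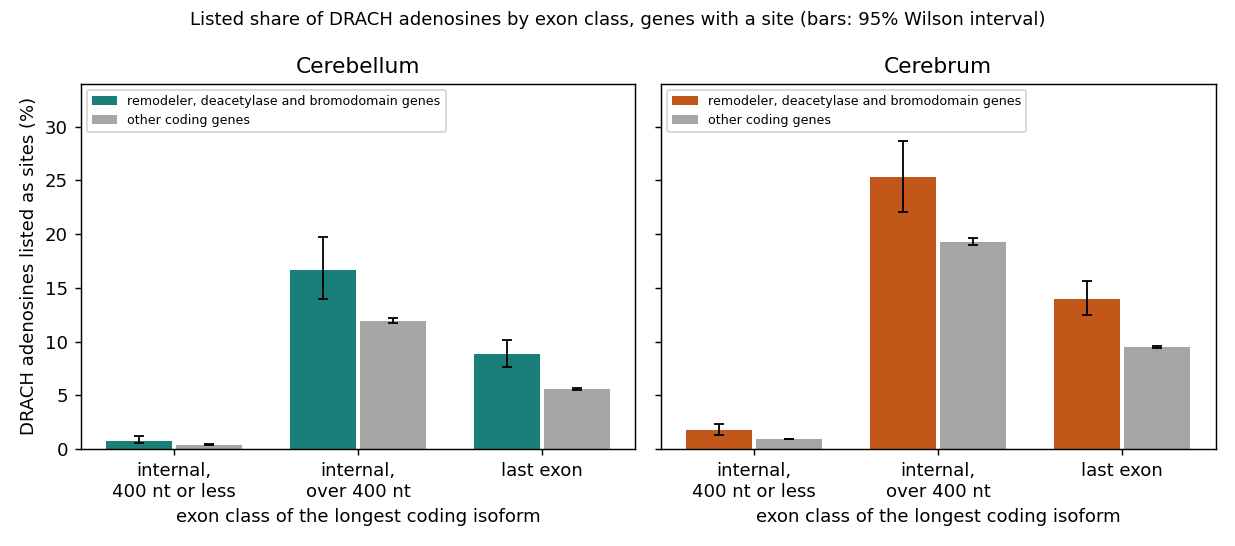
Percentage of the DRACH adenosines of the longest coding isoform listed as sites, by exon class, for the 49 members with a site (coloured) and the other coding genes with a site (grey), with the cerebellum on the left and the cerebrum on the right. Bars carry 95% Wilson intervals, and internal exons over 400 nt stand highest in both libraries, at 16.7% and 25.3% for the members.

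Long internal exons were found in 22 of the 53 genes, 35 exons in all, and 26 of these exons held a listed DRACH adenosine in either library. They carried 35.2% of the DRACH sites of the members on coding transcripts in cerebellum and 32.8% in cerebrum, against 18.9% and 12877 of 71592 in other genes. Arid2, Chd6, Chd8 and Chd9 supplied 72 of the 109 such sites in the cerebellum and 87 of the 165 in the cerebrum. Without Arid2 the listed share of long internal exons was 14.5% in cerebellum and 23.2% in cerebrum. The share without all of Arid2, Chd6, Chd8 and Chd9 was not computed. By family it was 23.1% and 27.4% in Chd and 19.5% and 30.5% in Arid. Brd had 11.5% and 26.9%, Baz 8.15% and 16.3%, and Smarc 3.12% and 15.6%. Other genes with a site had 11.9% and 19.3%, so the higher share was not common to all families. Distance from the exon junctions gave a like picture. Within 100 nt of a junction 0.970% of DRACH adenosines were listed in cerebellum and 2.03% in cerebrum, and farther away 10.2% and 15.9%. Even inside long internal exons the shares were 7.75% and 12.7% near the junctions and 19.2% and 28.8% beyond.

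Near stop codons the members also had a higher share. Within 200 nt of the stop codon, 15.9% (12.8 to 19.5) of their DRACH adenosines were listed in cerebellum and 21.6% (18.1 to 25.7) in cerebrum. Outside that window the shares were 4.24% and 7.16%. Members with a site had 16.7% and 22.8% inside it, and other genes with a site 8.70% and 14.9%. As a share of all sites on coding transcripts, the window held 21.2% (17.5 to 25.4) of member sites in the cerebellum, near the 20.4% of the other genes, and 128 of 784, or 16.3%, in the cerebrum, where the other genes had 21463 of 112893. The coding part of the last exon reached 13.4% and 26.6% in the members, or 48 and 95 of 357 DRACH adenosines. Members with a site had 14.6% and 28.9% there, and other genes with a site 8.43% and 15.2%. Of the listed ones, Arid1a held 16 and 27 and Arid1b 10 and 19. The share without Arid1a and Arid1b was not computed. Codon position made less difference: in the coding sequence, the share listed in the cerebellum was 3.76% at codon position 1, 4.11% at position 2 and 5.02% at position 3, with overlapping intervals.

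The SWI/SNF or BAF complex is built around the ATPases Smarca2 and Smarca4. Smarca4 had 4 sites in cerebellum and 15 in cerebrum, of which 1 and 2 were in DRACH, both in the 3′ UTR. Its alternative, Smarca2, had 1 and 17 sites, of which 0 and 2 were in DRACH, and the 2 lay in its internal exon of 462 nt. Most sites of both genes were thus outside the motif, and 11 of the 17 Smarca2 sites in the cerebrum were intronic. With 114 and 130 DRACH adenosines on offer in Smarca2 and Smarca4, fewer than 2% were listed in either gene and library.

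The scaffold subunits differed from each other. Smarcc2, which competes with Smarcc1 for a place in the complex, had 5 DRACH sites in the cerebellum, all of them also among its 9 in the cerebrum. Smarcc1 had 2 in each library and none in common. The listed share of Smarcc2 was 5.05% (2.18 to 11.3) and 9.09% (4.86 to 16.4), against 0.813% in both libraries for Smarcc1 (0.144 to 4.46). The intervals of these paralogs overlapped in the cerebellum and not in the cerebrum.

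Of the 3 Smarcd genes, which encode alternative subunits that bridge BAF to transcription factors, Smarcd1 had 4 DRACH sites in each library, 3 of them shared. Smarcd3 had 0 in cerebellum and 2 in cerebrum, and Smarcd2 had no site. Smarcb1, the core subunit lost in rhabdoid tumours, had 0 and 1. Smarce1, an accessory subunit with an HMG box, stood out among these small genes. It had 7 DRACH sites in cerebellum and 8 in cerebrum, 6 of them shared, and 12.3% and 14.0% of its 57 DRACH adenosines were listed. Of its 9 DRACH sites in the union, 8 were in the 3′ UTR, the nearest of them just past the stop codon. Smarcad1, a remodeler that acts alone in DNA repair and heterochromatin, had 6 and 13 DRACH sites with 5 shared, and Smarcal1, which anneals DNA at stalled replication forks, had 1 and 6 with 1 shared.

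Arid1a, Arid1b and Arid2 are the large subunits that set the identity of the complexes, BAF for the first pair and PBAF for Arid2. Arid1a had 27 DRACH sites in the cerebellum, every one of them also among its 44 in the cerebrum. No other member had a higher listed share: 26 of its 130 DRACH adenosines in the cerebellum (interval 14.0% to 27.7%) and 40, or 30.8% (23.5 to 39.2), in the cerebrum. Arid1b had 21 and 39 DRACH sites, 16 of them shared, and listed shares of 8.21% and 16.9%. Its last exon is longer, at 6294 nt against 2115 nt in Arid1a, and most of that length is 3′ UTR. Counting sites of any kind in the union of the lists, Arid1b had the most, 95. They comprised 34 in cerebellum and 85 in cerebrum, of which 10 and 34 were intronic.

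Arid2 had 28 DRACH sites in cerebellum and 38 in cerebrum, 24 of them shared. Most lay in a single exon: exon 15 of 21, with 2843 nt the longest internal exon of any member, held 23 listed DRACH adenosines in cerebellum and 27 in cerebrum out of 58, and 22 were the same. On this isoform no listed DRACH adenosine lay between that exon and the last one. Exon 18 of Arid1a, of 892 nt, held 5 and 7 listed of 12, and exon 18 of Arid1b, of 784 nt, held 1 and 3 of 8.

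**Figure D3:**
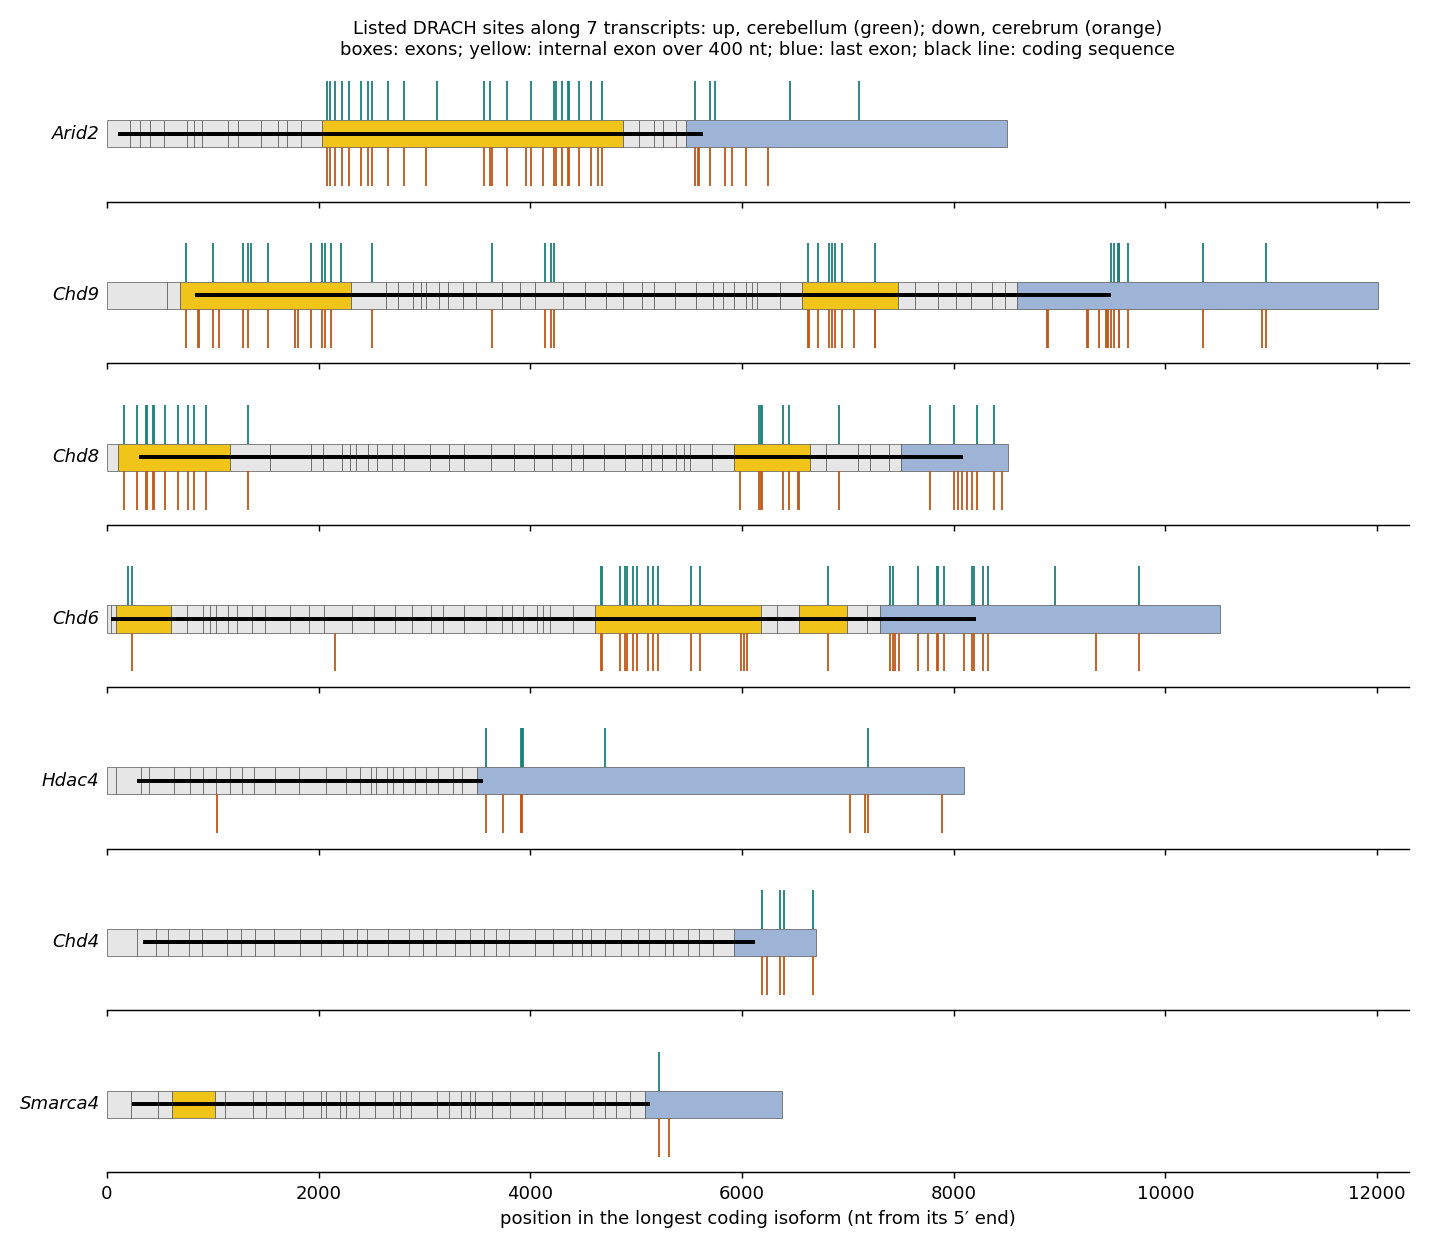
Listed DRACH sites along the longest coding isoform of 7 members (horizontal axis, nt from the 5′ end), with cerebellum sites as green ticks above and cerebrum sites as orange ticks below. Yellow boxes are internal exons over 400 nt, blue boxes last exons and the black line the coding sequence. In Arid2, 23 and 27 sites fall in the 2843 nt exon, while all 5 sites of Chd4 and both of Smarca4 fall in the last exon.

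Chd6, Chd7, Chd8 and Chd9 form the subgroup of CHD remodelers with BRK domains. Chd9 had the most DRACH sites of all members, 33 in cerebellum and 49 in cerebrum, 29 of them shared. Chd6 had 27 and 37 with 25 shared, and Chd8, a gene strongly linked to autism, had 22 and 32 with all 22 shared. The listed shares were alike, at 11.2% and 16.3% in Chd9, 11.3% and 14.2% in Chd6, and 11.5% and 15.6% in Chd8. Chd7 was far lower at 3.12% (1.52 to 6.31) and 2.68% (1.23 to 5.72), and its interval did not overlap those of the 3 relatives in either library.

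Chd7 differed although it has long exons too. Its exon 2, of 1825 nt, held 5 listed DRACH adenosines in cerebellum and 4 in cerebrum out of 35, and its long exons 3, 31 and 34 held none of 24. Exon 2 of Chd8, of 1059 nt, held 11 in each library out of 25, and they were the same 11. Exon 31 of Chd6, of 1572 nt, held 12 and 15 of 44, and exon 3 of Chd9, of 1614 nt, held 11 and 14 of 51. In exon 32 of Chd9, of 906 nt, 7 and 10 of 21 were listed. The densest stretch of any member was in Chd9 as well, where 9 DRACH sites in the union of the lists lay within 200 nt at the stop codon, 4 of them in both lists.

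Chd1 and Chd2, which bind methylated histone tails at active genes, have no internal exon over 400 nt. Chd1 had 7 DRACH sites in cerebellum and 16 in cerebrum, with 6 shared, and 12 of its 17 in the union were in the 3′ UTR. Chd2 had 9 and 14 with 8 shared, and 7 of the 15 in the union lay within 200 nt of coding sequence in its last exon. Chd2 had 11 and 40 sites in all, and any gene that overlaps it on the same strand could own some of them. Over all members, 2 cerebellum and 15 cerebrum sites lay inside another gene on the same strand.

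Chd3, Chd4 and Chd5 are the alternative ATPases of the NuRD complex, which joins remodeling to deacetylation. Chd4 had 4 DRACH sites in cerebellum and 5 in cerebrum, with 4 shared, and all 5 were in its short 3′ UTR of 590 nt. The neural Chd5 had 10 and 17 with 9 shared, of which 15 of 18 in the union were in a 3′ UTR of 3326 nt. Chd3 had 1, the same in both libraries. None of these 3 genes has an internal exon over 400 nt, and with coding sequences of 6168 nt, 5748 nt and 5859 nt they had 0, 0 and 2 coding DRACH sites. Chd1l, a remodeler activated by poly(ADP-ribose), had no site.

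Chd3 nevertheless had 19 sites in the cerebrum list, 18 of them outside DRACH and 12 in the coding sequence, against 2 sites in the cerebellum. Smarca5, the ISWI ATPase, had 11 in the cerebrum, 1 of them in DRACH and 10 coding, and 1 in the cerebellum. The exon class of such sites differed from that of the DRACH sites. In the cerebrum, 120 of 281 member sites outside DRACH on coding transcripts, or 42.7% (37.1 to 48.5), lay in internal exons of 400 nt or less, against 54 of 503 DRACH sites, or 10.7% (8.32 to 13.7). In the cerebellum the share was 25.7%, against 24 of 310, or 7.74%. Of the sites outside DRACH in the cerebellum, 31.1% (24.3 to 38.9) were also in the cerebrum list, far below the 86.0% of DRACH sites. The other coding genes showed the same contrast, with 26.6% outside DRACH and 81.5% in DRACH. The source of the sites outside DRACH was not tested.

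The Baz genes encode large partners of the ISWI ATPases. Baz2b had 9 DRACH sites in cerebellum and 21 in cerebrum, with 7 shared. Baz1b, a gene of the Williams syndrome interval, had 4 and 16 with 3 shared, and in its exon 7, of 1705 nt, 2 and 7 of 41 DRACH adenosines were listed. Baz2a, which silences ribosomal DNA, had 8 and 11 with 5 shared, and 5 and 6 of the 11 DRACH adenosines in its exon 4 were listed. Baz1a had 0 and 1, with no listed DRACH adenosine in its exons of 600 nt and 461 nt. The family had the largest ratio of cerebrum to cerebellum DRACH sites, 2.33, on 21 and 49 sites.

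The remaining Arid genes act in other complexes. Arid4a and Arid4b belong to the Sin3 deacetylase complex. Arid4b had 15 DRACH sites in cerebellum and 24 in cerebrum, with 14 shared, and 14 of 25 in the union were in the 3′ UTR. Arid4a had 6 and 11 with 5 shared, of which 8 of 12 were in the coding sequence, all of them in its internal exon of 1134 nt. The matching exon 20 of Arid4b, of 1215 nt, held 2 and 7. Arid5b, a partner of the demethylase Phf2, had 4 and 13 with 3 shared.

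Hdac genes had few sites. The whole family listed 9 of 713 DRACH adenosines in the cerebellum, or 1.26% (0.665 to 2.38), and 14 in the cerebrum, or 1.96% (1.17 to 3.27). Those were the lowest shares of the 6 families, below the intervals of the Arid family at 8.04% (6.63 to 9.72) and 13.1% (11.3 to 15.2). In the cerebellum the Hdac interval overlapped those of Smarc, at 2.48% (1.68 to 3.63), and Baz, at 3.17% (2.06 to 4.84). In the cerebrum it overlapped neither, with 4.56% (3.44 to 6.03) in Smarc and 7.29% (5.51 to 9.59) in Baz. No Hdac gene has an internal exon over 400 nt. In last exons, where the comparison does not rest on internal exons, the Hdac share was 2.47% (1.30 to 4.62) in cerebellum and 3.56% (2.09 to 6.00) in cerebrum. The Arid genes had 10.1% and 16.4%, the Chd genes 13.3% and 21.4%, and the Brd genes 9.35% and 11.2%. The Baz genes had 3.36% (1.44 to 7.61) and 10.7% (6.72 to 16.7), and the Smarc genes 6.71% (4.34 to 10.2) and 9.19% (6.35 to 13.1). The Hdac interval thus overlapped those of Baz and Smarc in the cerebellum and not in the cerebrum. How far expression differed between these families is not known from site lists, and its part in the result was not tested.

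Among the ubiquitous nuclear deacetylases, Hdac1 had 0 sites in cerebellum and 2 in cerebrum, none of them in DRACH. Its close paralog Hdac2 had 4 and 5 sites, of which 2 and 1 were in DRACH, both in the 3′ UTR. Hdac3, the catalytic subunit of the NCoR complex, had 1 DRACH site in both libraries. The class IIa enzymes shuttle between nucleus and cytoplasm in active neurons, and here Hdac4 stood apart with 6 and 11 DRACH sites, 4 of them shared and 11 of 13 in its 3′ UTR of 4568 nt. Hdac9, whose 3′ UTR is as long at 4721 nt, had 0 and 2. Hdac5 and Hdac7 had 0 in cerebellum and 1 in cerebrum. Hdac11, the lone class IV enzyme, had the same 2 DRACH sites in both libraries, and Hdac10 had no DRACH site.

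Brd2 and Brd3 are BET proteins, which bind acetylated histones through paired bromodomains. Brd2 had 8 DRACH sites in cerebellum and 15 in cerebrum, all 8 shared, and 9 of these 15 were in the 5′ UTR, in its exon 2 of 1295 nt. Brd3 had 3 and 11, all 3 shared. The listed shares in the cerebrum were 18.9% (11.6 to 29.3) in Brd2 and 9.91% (5.62 to 16.9) in Brd3, with overlapping intervals.

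Other bromodomain genes ranged more widely. Brd1, the scaffold of a histone acetyltransferase complex, had 6 DRACH sites in cerebellum and 15 in cerebrum, with 4 shared and 13 of 17 in its long internal exons. Brd9, a subunit of the non-canonical BAF complex, had 6 and 8 with 5 shared, and 13.3% of its 45 DRACH adenosines were listed in each library. Brd7, its relative in PBAF, had 1 and 1 at different positions. Brd8 of the NuA4 acetyltransferase complex had 2 and 3, and Brd3os had 2 and 3 in its 5′ UTR.

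Aligned coding sequences allowed the paralogs to be compared base by base, on the isoform with the longest coding sequence. Over 16 pairs formed by 28 genes, some of which enter more than one pair, 444 DRACH adenosines had a DRACH adenosine at the same codon position in the paralog. Of these, 16 were listed in both genes in either library, 15 in the first gene of the pair alone, 14 in the second alone and 399 in neither. The 16 fell into 4 of the pairs, among them 9 in Arid1a-Arid1b, 5 in Chd8-Chd9 and 1 in Brd2-Brd3. In 8 of the 16 the 5-mer was the same in both genes. Reads were placed by the mapping of the authors, and whether any could belong to the paralog was not tested.

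Arid1a and Arid1b share 59.7% of aligned residues. Of their 39 aligned DRACH adenosines, 9 were listed in both genes, 7 in Arid1a alone, 1 in Arid1b alone and 22 in neither. All 9 lay in the last exon, which held 21 of the aligned positions, from 1006 nt to 55 nt before the last base of the stop codon. Their distances were equal in both genes, which follows from the codon alignment and is no separate result. Positions listed in neither gene also had equal distances. Of the 21 in the last exon, 4 were listed in Arid1a alone, 1 in Arid1b alone and 7 in neither. How many would be listed in both genes if listing in each were independent was not computed. Outside the last exon none of 18 aligned positions was listed in both genes and 15 were listed in neither. Of the 9, 5 were listed in both libraries in both genes, namely those whose windows are printed above, and 7 had the same 5-mer.

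**Figure D4:**
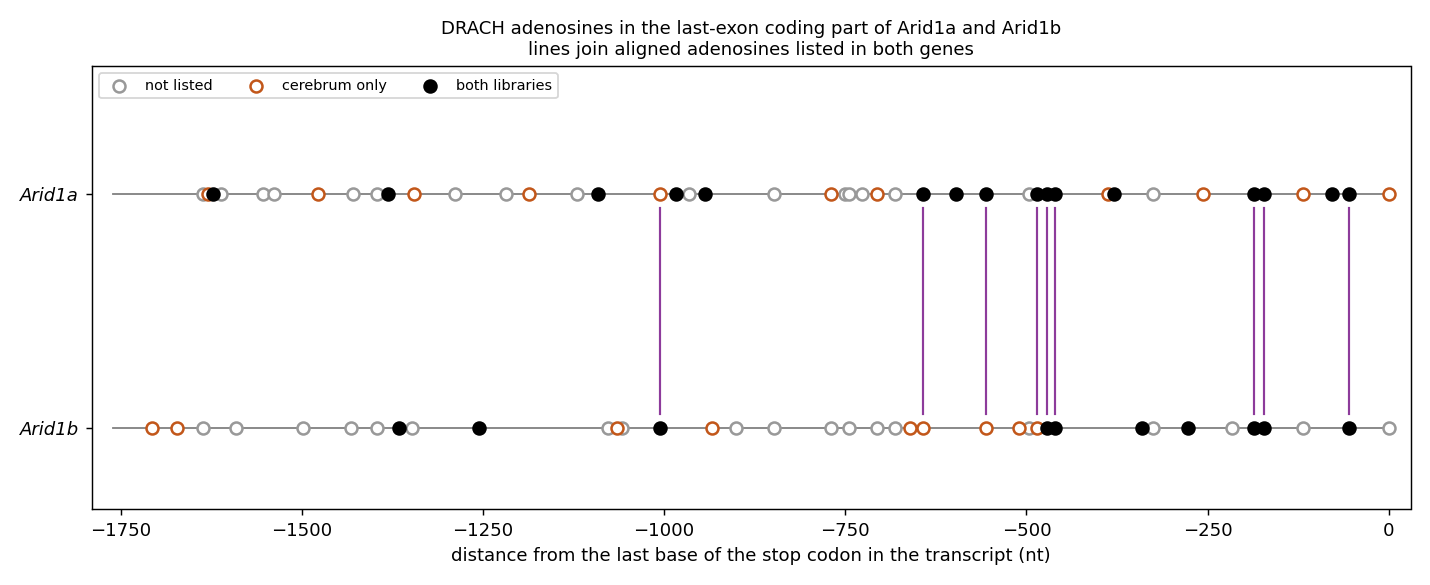
DRACH adenosines in the coding part of the last exon of Arid1a (44 positions) and Arid1b (38 positions), by distance in nt from the last base of the stop codon. Filled black points were listed in both libraries, orange in the cerebrum alone and grey in neither. The 9 purple lines join aligned adenosines listed in both genes, whose equal distances follow from the codon alignment.

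In that coding part of the last exon, Arid1a had 16 listed DRACH adenosines in cerebellum and 27 in cerebrum out of 44. Arid1b had 10 and 19 out of 38. No position was listed in the cerebellum alone. Chd8 and Chd9, with 56.7% of aligned residues identical, had 5 of 37 aligned DRACH adenosines listed in both, 2 in Chd9 alone, 0 in Chd8 alone and 30 in neither. For Chd7 and Chd8 none of 54 was listed in both and 5 were listed in Chd8 alone. Pairs with high identity had few or no listed coding sites: of the aligned positions, 0 of 40 in Smarca2-Smarca4, 0 of 35 in Chd3-Chd4 and 0 of 16 in Hdac1-Hdac2 were listed in either gene.

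GGACT was the most frequent 5-mer at member sites in both libraries, with 44 of 472 in the cerebellum and 73 of 1070 in the cerebrum. GAACT followed in the cerebellum with 43 and had 61 in the cerebrum. In relation to its occurrence, 15.3% (11.5 to 20.1) of the GGACT in the longest coding isoforms of the members with a site were listed in cerebellum and 23.0% (18.4 to 28.3) in cerebrum, against 10.5% and 18.6% in other coding genes with a site. The cerebrum interval includes the value of the other genes.

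At 4 member sites the GRCm38 base on the transcript strand was G in place of A. Those in Chd9 and Baz2b were in both lists, and their windows are shown because the assay can only report an A. The lists unite calls on the C57 genome and on a copy carrying PWK bases. Whether PWK has an A there was not tested. Capitals mark the 5-mer centred on the listed position.
Baz2b, exon of another transcript, chr2:59954712-59954732, minus strand: tcctgaacGGGTCgggctcag
Chd9, coding, 8146 nt before the stop codon's last base, chr8:90932867-90932887, plus strand: caaaacaaAAGCTttgtggcg
With an A at its centre, the Chd9 5-mer would be a DRACH motif and that of Baz2b would not. The Chd9 position is in the coding sequence, in the long exon 3, and that of Baz2b in an exon outside its complete coding isoforms. Those in introns of Hdac9 and Arid4b, were each in a single list.

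Introns held 42 of the 472 member sites in the cerebellum, or 8.90%, and 193 of the 1070 in the cerebrum (15.8% to 20.5%), less than the 18.7% and 27.0% of the other coding genes. Of the intronic member sites 14.3% (6.72 to 27.8) were in DRACH in cerebellum and 13.5% in cerebrum (26 of 193), against 74.4% and 62.3% of the coding ones. Arid1b held 34 of the intronic sites in the cerebrum, Arid4b 14 and Baz2b 13.

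For context, 47 genes for partners of these proteins in BAF, NuRD, Sin3, CoREST, INO80 and acetyltransferase complexes were counted in the same way. A DRACH site was listed in 38 of them in cerebellum (35.7% of all genes) and 41 in cerebrum (46.0% of all genes). Their longest coding isoforms had 6.18% (5.54 to 6.89) and 10.6% (9.74 to 11.5) of DRACH adenosines listed, against 5.12% and 8.26% in the members. The acetyltransferases Crebbp, with 40 and 44 DRACH sites, and Ep300, with 25 and 46, the remodeler Srcap with 37 and 44, and Bptf, a nucleosome remodeling factor subunit, with 27 and 50, had the most, beside 27 and 44 in Arid1a and 33 and 49 in Chd9. Mta2 and Sap30, of the NuRD and Sin3 complexes, had no site.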

How the data were processed

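The authors mapped GLORI reads to mm10 and to a PWK version of it, called sites with GLORI-tools and filtered them on methylation rate and read count. The deposited files list 79355 cerebellum and 188295 cerebrum positions, with strand and no measured level. Per the submitters' processing notes the build is mm10, and bases were read from GRCm38, the same assembly. Gene models were GENCODE M21, a different release from the one the paper names.

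Sites inside a member on its strand were assigned to the longest complete coding isoform that covers them, then to other exons, then to introns. A DRACH adenosine was called listed where its position is in the list. Shares have 95% Wilson intervals. No test was made with 1 library per tissue. Paralogs were aligned by protein with BLOSUM62, and codons carried over. The steps were tested on simulated data.

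Members, lists and the exon length limit of 400 nt were chosen with earlier results of these data known. Named with values were, per family, the 4 members with the most DRACH sites, all members of the paralog pairs, those with more DRACH sites in the cerebellum, and those without sites; other genes, among them Smarca5, Smarcb1, Arid5b, Brd7, Brd8, Brd9, Brd3os, Hdac3, Hdac7 and Hdac10, were named after their values were seen. Python 3.11.15, numpy 2.4.6, pandas 2.3.3, scipy 1.17.1, pysam 0.24.0, Biopython 1.88 and matplotlib 3.10.9 were used. Some items are not reported here.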

Additional observations from a re-analysis of the deposited data

How the results depend on the processing

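No paired analysis was possible because each tissue has 1 library and the labels carry no replicate number, and no replicate could be left out. The depth of the libraries is unknown, so what a longer list owes to depth cannot be told apart from the tissue. For shares, 34 of 44 alternative values stayed within the interval of the value reported and 10 moved. All 10 alternative counts of member genes or sites stayed within 1.5 times the count reported, the cerebrum sites falling from 1070 to 877 on exons alone. With sites on exons alone, the shared share of the cerebellum member sites was 74.2% and the DRACH share 73.3% in the cerebellum and 59.1% in the cerebrum. Among sites in both lists the DRACH share was 85.4%, and the stop codon window held 23.5% of the cerebrum sites. With DRACH sites alone that window held 20.1% of the cerebrum sites. A window of 400 nt held 32.4% of cerebellum and 26.5% of cerebrum sites. With internal exons over 600 nt as the long class, an alternative added after the data were seen, the listed share in the cerebrum was 29.0%. Internal exons over 300 nt and the omission of Arid2 were added in the same way and moved neither library out of its interval. Leaving out Arid1b, the member with the most sites, moved no share it was tried on out of its interval, and gave 438 cerebellum and 985 cerebrum sites.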
